A study of Mus musculus with 4 samples.

Results

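The Hox cluster genes encode homeodomain transcription factors and lie in 4 clusters, Hoxa to Hoxd. The members here were all genes whose symbol in the platform annotation is Hoxa, Hoxb, Hoxc or Hoxd followed only by a number, each read by the brightest probe set naming that gene alone. Of the 39 such genes in the RefSeq gene table, 33 were measured, among 18193 genes in all, and the others were not analysed here. Signals came from Affymetrix arrays of LSK cells, the lineage-negative, cKit-positive, Sca1-positive fraction of mouse bone marrow that holds blood stem cells and multipotent progenitors. Mice of the WT group were Ncstn flox/flox without a cre transgene, and mice of the Ncstn KO group were Ncstn flox/flox Mx1-cre+. The product of Ncstn, nicastrin, belongs to the gamma-secretase complex, which releases the active part of Notch receptors. Mx1-cre is a recombinase gene under an interferon-responsive promoter that is not limited to blood cells. Every mouse, WT included, received the interferon inducer polyIC in 3 injections of 20 µg per g from 14 days of age, and cells were sorted 4 weeks later from littermates aged 6 weeks. Because WT mice lacked the transgene, loss of Ncstn and presence of cre cannot be told apart. Each group had 2 arrays, WT from a male (replicate 1) and a female (replicate 2), and Ncstn KO from a female (replicate 1) and a male (replicate 2). The labels do not say whether an array held cells of 1 mouse or of several.

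Within a cluster, Hox genes are numbered by paralog group from the end that acts in anterior parts of the embryo to the end that acts in posterior parts, and genes with the same number in different clusters are close relatives. In blood formation, genes of the Hoxa and Hoxb clusters are active in stem cells and early progenitors and are turned down as cells mature. Hox proteins bind DNA together with the TALE proteins of the Meis and Pbx families, Trithorax proteins such as Kmt2a keep the genes active, and Polycomb proteins keep them silent.

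RefSeq promoter windows (GRCm38.p6, 250 bases before to 50 after a start) were found for 22 of the 39 genes, 24 windows in all. Those of the Hoxa and Hoxb genes with signal above background are shown, since the results below turn on these genes: 6 Hoxa genes, Hoxa10 with 2 start sites, and Hoxb4. Only the 250 bases before the start are printed, 5′ to 3′, with capitals for matches on either strand to any of 6 motifs. The first motif was TGGGAA, the core of the site of RBPJ, the DNA-binding partner of Notch. Promoter elements searched were the E-box CACGTG, then the box CCAAT that the factor NF-Y binds, and the TATA box, searched as TATAAA. Sites of homeodomain proteins were a CDX-like one, searched as TTTATG, and a HOX-PBX-like one, searched as TGATNNAT. Overlapping matches would be counted for each motif.
Hoxa9 (chr6:52227371-52227620, minus strand): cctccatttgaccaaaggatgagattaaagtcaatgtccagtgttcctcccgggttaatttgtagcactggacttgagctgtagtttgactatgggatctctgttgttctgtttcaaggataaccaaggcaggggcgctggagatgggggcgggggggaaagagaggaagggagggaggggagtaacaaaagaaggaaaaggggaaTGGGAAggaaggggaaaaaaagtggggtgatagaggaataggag
Hoxa10 (chr6:52234940-52235189, minus strand): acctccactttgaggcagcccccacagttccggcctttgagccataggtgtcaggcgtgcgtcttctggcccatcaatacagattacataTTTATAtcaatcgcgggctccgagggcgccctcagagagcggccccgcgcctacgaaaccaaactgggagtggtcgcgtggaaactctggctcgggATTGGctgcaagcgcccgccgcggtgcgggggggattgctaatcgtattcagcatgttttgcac
Hoxa10 (chr6:52240855-52241104, minus strand): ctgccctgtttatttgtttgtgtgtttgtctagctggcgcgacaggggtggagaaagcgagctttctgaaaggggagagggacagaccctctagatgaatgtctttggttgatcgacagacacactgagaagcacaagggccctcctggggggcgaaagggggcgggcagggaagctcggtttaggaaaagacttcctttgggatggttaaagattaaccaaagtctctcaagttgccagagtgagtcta
Hoxa7 (chr6:52218574-52218823, minus strand): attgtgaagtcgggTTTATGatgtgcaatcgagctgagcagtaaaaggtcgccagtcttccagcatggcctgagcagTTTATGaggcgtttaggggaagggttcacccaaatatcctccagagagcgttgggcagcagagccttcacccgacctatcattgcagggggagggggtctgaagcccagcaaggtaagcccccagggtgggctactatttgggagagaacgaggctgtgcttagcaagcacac
Hoxa5 (chr6:52204588-52204837, minus strand): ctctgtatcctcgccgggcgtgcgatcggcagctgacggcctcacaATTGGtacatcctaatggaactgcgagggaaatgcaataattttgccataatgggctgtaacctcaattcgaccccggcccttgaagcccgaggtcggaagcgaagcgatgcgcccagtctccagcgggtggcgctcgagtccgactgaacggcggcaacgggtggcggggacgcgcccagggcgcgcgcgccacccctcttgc
Hoxa3 (chr6:52213068-52213317, minus strand): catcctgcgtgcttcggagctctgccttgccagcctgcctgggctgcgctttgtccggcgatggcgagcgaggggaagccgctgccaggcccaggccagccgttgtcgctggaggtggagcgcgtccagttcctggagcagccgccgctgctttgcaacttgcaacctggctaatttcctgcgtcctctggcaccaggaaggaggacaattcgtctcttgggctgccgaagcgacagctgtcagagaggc
Hoxa2 (chr6:52164832-52165081, minus strand): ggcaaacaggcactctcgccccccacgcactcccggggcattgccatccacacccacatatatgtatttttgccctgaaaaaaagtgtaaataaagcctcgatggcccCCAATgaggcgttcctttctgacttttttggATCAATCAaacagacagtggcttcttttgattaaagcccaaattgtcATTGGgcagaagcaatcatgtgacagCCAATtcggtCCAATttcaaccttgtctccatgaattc
Hoxb4 (chr11:96318017-96318266, plus strand): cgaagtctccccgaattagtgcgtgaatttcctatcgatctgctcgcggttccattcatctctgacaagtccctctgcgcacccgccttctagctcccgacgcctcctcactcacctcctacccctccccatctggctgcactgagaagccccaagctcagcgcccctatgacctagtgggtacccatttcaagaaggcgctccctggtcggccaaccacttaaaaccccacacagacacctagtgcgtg

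Hoxa9 held a TGGGAA match starting 44 bases before its start, Hoxa7 held TTTATG at 236 and 173 bases, and Hoxa2 held 4 CCAAT matches and 1 HOX-PBX-like match. The first Hoxa10 window held a TATAAA match at 160 and a CCAAT match at 64 bases, and Hoxa5 held a CCAAT match at 204 bases. Windows of Hoxa3 and Hoxb4 and the second of Hoxa10 held no match before the start. Over the full 300 bases, TGGGAA was in 5 of 24 Hox windows (20.8%) and in 25.6% of all 32851 windows. CCAAT was in 15 Hox windows (62.5%) against 37.4% of all, CACGTG in 5 (20.8%) against 7.15%, and TATAAA in 4 (16.7%) against 13.6%. TTTATG was in 5 (20.8%) against 11.9%, and TGATNNAT in 4 (16.7%) against 8.85%. The Hox windows had a median GC content of 57.7% and a median of 14.5 CpG, against 52.7% and 7 CpG over all windows. These are matches of letters, and no binding was measured.

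Array quality and labels were checked before the members were read. Median intensities ran from 71.6 to 79.2, and Pearson's r between arrays over all genes, which are not independent replicates, ran from 0.990 to 0.995. Ncstn read 9.05 and 8.98 (log2) in WT and 7.58 and 7.91 in Ncstn KO, a log2 difference of -1.27 (SE 0.22, limma adjusted p = 0.257). The RNA of the inactive X chromosome, Xist, read 11.90 and 11.84 on the female and 6.09 and 4.88 on the male arrays, as labelled. The 5 measured LSK markers, among them Kit, Cd34 and Procr, all lay above the reference described next, while Ly6a, which encodes Sca1, was not analysed here. So did 69.2% of all genes and all 6 measured mature myeloid markers, so this reading does not set LSK cells apart. Marker genes of committed myeloid progenitors (Ms4a3, Elane, Prtn3, Ctsg and Mpo) had 5 of 5 members with a higher mean in Ncstn KO, with summed intensities of 25577 to 26768 in WT and 37962 to 38954 in Ncstn KO. None of them passed (smallest limma adjusted p = 0.0624, for Ms4a3), and Mpo differed by 0.01 with overlapping groups. The other 4 were at an unadjusted limma p under 0.05, against 6.8% of all genes. For these 4 both Ncstn KO arrays lay above both WT arrays, against 21.3% of all genes. Over all genes 44.2% had a lower mean in Ncstn KO. Of 6 mature myeloid markers 6 had a higher mean, with a median of 0.15 and separate arrays for Itgam (1.07, SE 0.36), and their sums overlapped. In the LSK, B cell, T cell and erythroid lists the markers at an unadjusted p under 0.05 were Slamf1 of the LSK list (0.83, SE 0.28) and Ms4a1 of the B cell list (-2.12, SE 0.24), and none passed.

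Signal of the Hox genes in LSK cells was concentrated in the measured Hoxa genes from Hoxa2 to Hoxa10 and in a shorter run from Hoxb2 to Hoxb5. As the files hold no detection calls, dim signals were read against 38 olfactory receptor genes, a class not known for a role in blood progenitors. A member counted as above the reference when its mean log2 intensity over the 4 arrays was above the 95th percentile of those genes, 4.96. Of the 33 members 15 (45.5%) were above it, against 69.2% of all genes, and 10 were above it by at least 1 on the log2 scale. Probe sets differ in how well they bind their target, so intensities of different genes give no order of transcript levels.

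**Figure D1:**
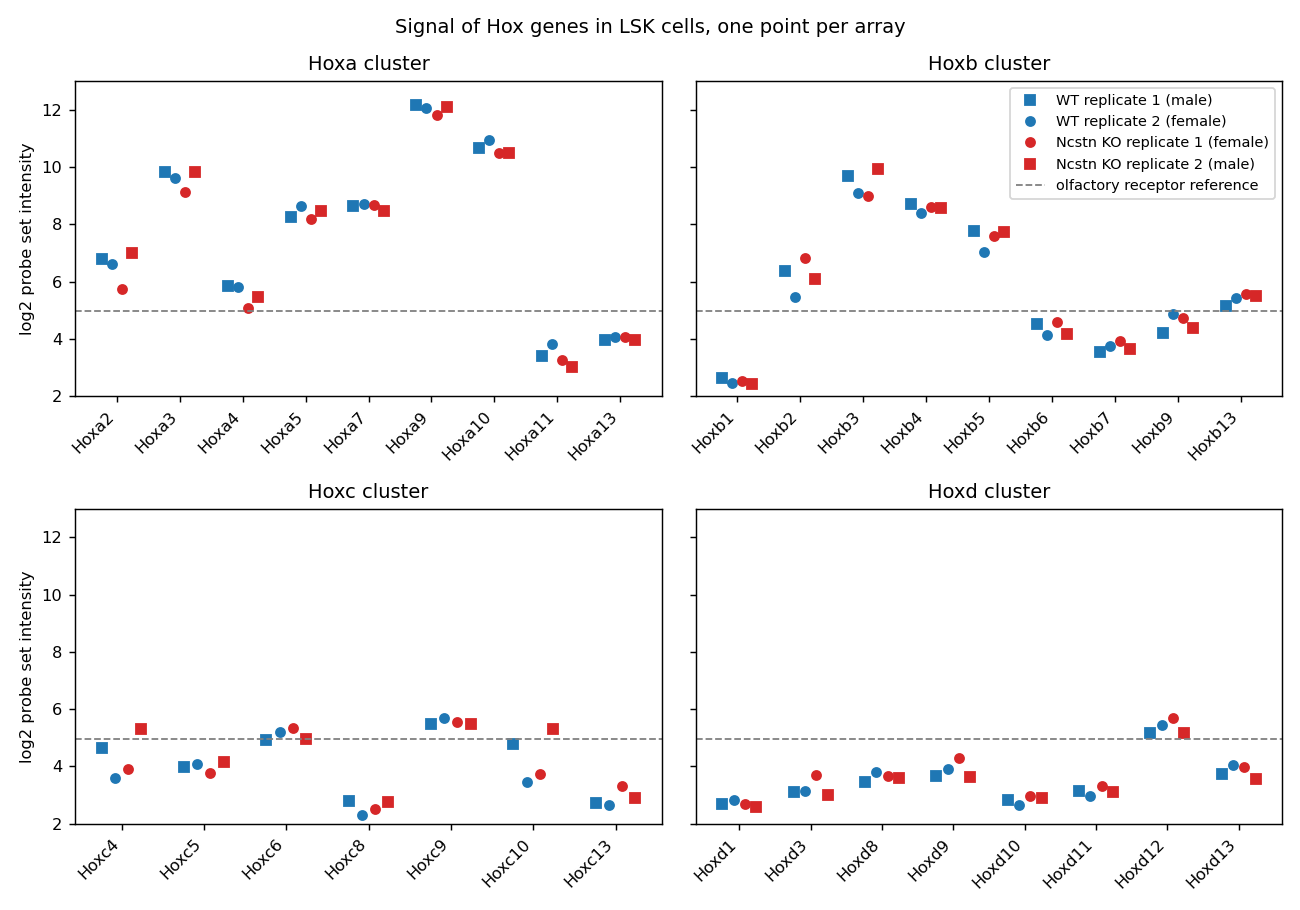
Log2 probe set intensity (vertical axis) of 33 Hox genes, in paralog order within each of 4 clusters, with 1 point per array (blue WT, red Ncstn KO, squares male, circles female) and the olfactory receptor reference as a dashed line at 4.96. Hoxa2 to Hoxa10 and Hoxb2 to Hoxb5 lie above the line, and most Hoxc and Hoxd genes lie below it.

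In the Hoxa cluster 7 of 9 measured members were above the reference. Hoxa9, which supports stem cell and progenitor growth and is a leukemia gene, read 12.17 and 12.04 in WT and 11.83 and 12.11 in Ncstn KO (log2, here and below). Hoxa10, a relative of Hoxa9 that also acts in early progenitors, read 10.67 and 10.93 in WT and 10.50 and 10.49 in Ncstn KO. Hoxa7, another member active in progenitors, read 8.64 and 8.71 in WT and 8.68 and 8.46 in Ncstn KO. The Ncstn KO arrays lay below both WT arrays for Hoxa10, and the groups overlapped for Hoxa7 and Hoxa9.

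Hoxa5, a central member of the cluster, read 8.27 and 8.65 in WT and 8.17 and 8.47 in Ncstn KO. Hoxa3, known for its part in thymus formation, read 9.84 and 9.62 in WT and 9.12 and 9.83 in Ncstn KO. Hoxa2, known from the hindbrain and neural crest, read 6.80 and 6.61 in WT and 5.73 and 7.004 in Ncstn KO. On all of these Ncstn KO replicate 1 was the lowest array, while replicate 2 of the same group lay among or above the WT arrays. Hoxa4 read 5.85 and 5.82 in WT and 5.07 and 5.44 in Ncstn KO, and the groups did not overlap. Hoxa11 and Hoxa13, at the posterior end and known from limb and urogenital development, were not above the reference, with means of 3.37 and 4.00.

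In the Hoxb cluster 5 of 9 measured members were above the reference. Hoxb4, which expands blood stem cells when overexpressed, read 8.72 and 8.39 in WT and 8.61 and 8.57 in Ncstn KO, the latter lying between the WT arrays. Hoxb5, described as a marker of long-term stem cells in mouse, read 7.77 and 7.02 in WT and 7.60 and 7.71 in Ncstn KO. Hoxb3 read 9.68 and 9.08 in WT and 8.97 and 9.94 in Ncstn KO. For Hoxb3 the male arrays were the higher ones in both groups, and for Hoxb5 WT replicate 2 stood below the other arrays. Hoxb2, known from the hindbrain, read 6.38 and 5.45 in WT and 6.81 and 6.09 in Ncstn KO, overlapping groups with a spread within each. Hoxb13, known from prostate and tail, read 5.16 and 5.44 in WT and 5.58 and 5.50 in Ncstn KO, only 0.46 above the reference on average. Hoxb1, Hoxb6, Hoxb7 and Hoxb9 were not above it, with means from 2.51 to 4.54.

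The Hoxc and Hoxd clusters, known from axial and limb patterning, gave little signal above the reference. Hoxc6 and Hoxc9 were the members above it among 7 measured Hoxc genes, by 0.14 and 0.59, and Hoxd12 among 8 measured Hoxd genes, by 0.41. Hoxc6 read 4.92 and 5.20 in WT and 5.34 and 4.96 in Ncstn KO. Hoxc6, with a mean of 5.10, lay below the brightest olfactory receptor gene, with a mean of 5.12. Its dimmer probe sets were not above the reference, with means of 3.51 and 3.43, and differed by -0.10 and -0.21. Hoxc9 read 5.50 and 5.68 in WT and 5.54 and 5.49 in Ncstn KO. Hoxd12 read 5.17 and 5.45 in WT and 5.69 and 5.15 in Ncstn KO, so that the groups overlapped for each of these genes. The other members were Hoxc4, Hoxc5, Hoxc8, Hoxc10 and Hoxc13, with means of 2.59 to 4.36, and Hoxd1, Hoxd3, Hoxd8, Hoxd9, Hoxd10, Hoxd11 and Hoxd13, with means of 2.69 to 3.87. Just outside the reference stood Hoxb9, 0.42 below it, and just inside it Hoxc6.

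By position, 4 of 7 anterior members (paralog groups 1 to 3), 6 of 12 central members (groups 4 to 8) and 5 of 14 posterior members (groups 9 to 13) were above the reference. The posterior members were Hoxa9, Hoxa10, Hoxb13, Hoxc9 and Hoxd12. Of paralog group 9, Hoxa9 and Hoxc9 were above the reference and Hoxb9 and Hoxd9 were not. Genes flanking the clusters were also read, the 3 nearest protein-coding genes on each side of each cluster. Of 22 measured flanking genes 20 were above the reference, among them Skap2 and Snx10 beside Hoxa and Mtx2 beside Hoxd, while Evx1 and Calcoco2 were not.

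The comparison of Ncstn KO with WT called no Hox gene. With the limma fit across all 18193 genes, 0 of 33 members passed an adjusted p of 0.05, the smallest being 0.721 for Hoxc13, and over all genes 0% passed. At an unadjusted p under 0.05 there was 1 member, Hoxc13 (3.03%), against 6.8% of all genes. Both Ncstn KO arrays lay above both WT arrays for 3 members (9.09%), Hoxb13, Hoxc13 and Hoxd10, against 21.3% of all genes. Both lay below for 3 members (9.09%), Hoxa4, Hoxa10 and Hoxa11, against 12.8% of all genes. No member differed by at least 2-fold with separate arrays, against 1.71% of all genes. An exact two-sided permutation test of 2 arrays against 2 cannot give a p under 0.333.

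The direction differed by cluster. In the Hoxa cluster 8 of 9 members, and 7 of 7 above the reference, had a lower mean in Ncstn KO, with a median log2 difference of -0.25 over the 9. Of the Hoxb members 8 of 9, and 5 of 5 above the reference, had a higher mean, with a median of 0.08 over the 9. The Hoxc and Hoxd medians were 0.09 and 0.14 over mostly dim members. Over all genes the median was 0.02, with 44.2% lower in Ncstn KO, and over the 33 Hox genes it was 0.04, with 14 (42.4%) lower. Scaling the arrays to the hybridization controls moved the median of all genes to -0.17 and the lower share to 78.6% of all genes and 26 of 33 Hox genes. It left 9 of 9 Hoxa members lower, with a median of -0.45, and 6 of 9 Hoxb members lower, with a median of -0.12. This scaling moves every gene's difference by the same amount, so it cannot change how a cluster stands against all genes. Genes of a cluster share arrays and neighbours and are not replicates, so the difference between clusters was not tested.

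The lower Hoxa means rested largely on 1 array, the female one of the Ncstn KO group. Without Ncstn KO replicate 1, 5 of 9 Hoxa members and 3 of 7 above the reference were lower, and the median was -0.04 over the 9 and 0.0037 over the 7. Without Ncstn KO replicate 2, 7 of 9 and 6 of 7 were lower, with a median of -0.29. Without WT replicate 1, 9 of 9 Hoxa members were lower, with a median of -0.25, and without WT replicate 2, 7 of 9, with a median of -0.20. The signs of Hoxa2, Hoxa3, Hoxa5 and Hoxa9 turned without Ncstn KO replicate 1, that of Hoxa5 also without WT replicate 2 and that of Hoxa7 without Ncstn KO replicate 2, while Hoxa4, at -0.77 to -0.39, and Hoxa10, at -0.43 to -0.17, stayed below 0 without any 1 array. The higher Hoxb means rested on WT replicate 2, without which 5 of 9 Hoxb members were lower and the median was -0.11. Without the other arrays in turn the Hoxb median ran from 0.02 to 0.21. Leaving out an array also leaves 1 group with a single sex. For Hoxa2 (male minus female 0.73), Hoxa3 (0.46) and Hoxa9 (0.20) both male arrays lay above both female arrays. Hoxa7 went the other way, and the sexes overlapped for Hoxa4, Hoxa5 and Hoxa10. Ncstn KO replicate 1 and WT replicate 2 are the female arrays of their groups, so array and sex cannot be told apart.

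**Figure D2:**
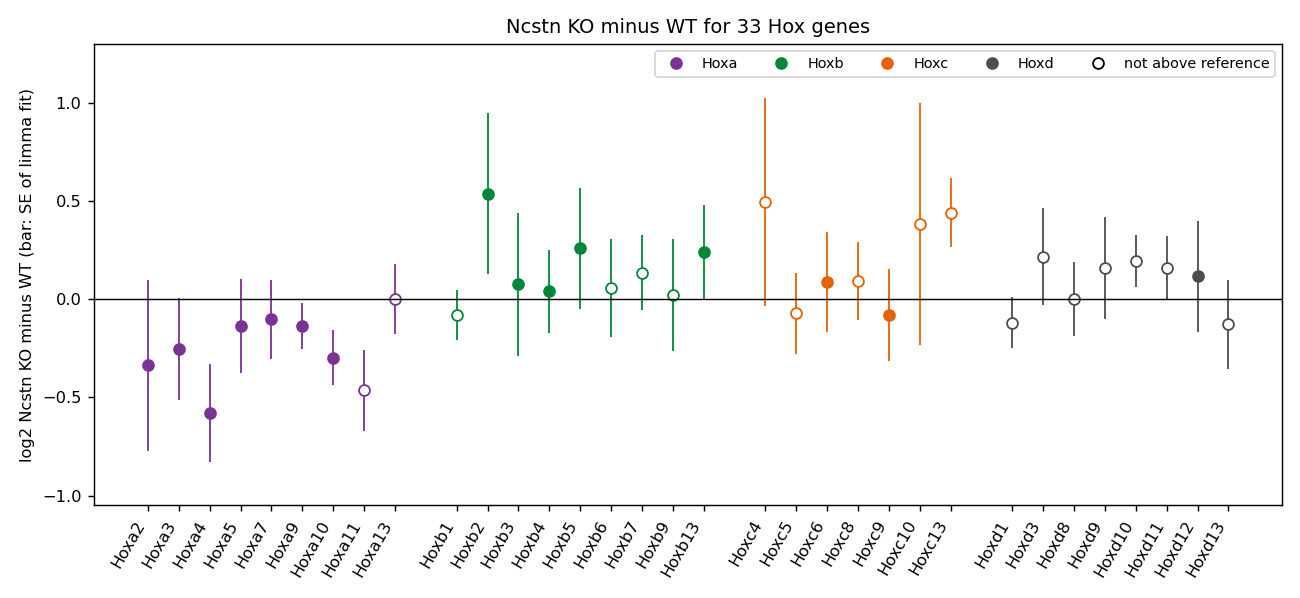
Log2 Ncstn KO minus WT (vertical axis) for 33 Hox genes grouped by cluster, with bars for the standard error of the limma fit (n = 2 per group) and open circles for members not above the reference. All 7 Hoxa members above the reference lie below 0 and all 5 Hoxb members above it lie above 0, though Hoxb3 and Hoxb4 turned negative under scaling to hybridization controls, and no gene passed an adjusted p of 0.05.

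Among single Hoxa genes, Hoxa4 had a mean of 5.84 ± 0.02 (SD, n = 2) in WT and 5.26 ± 0.26 (SD, n = 2) in Ncstn KO, 1.495-fold lower (log2 -0.58, SE 0.25, limma adjusted p = 0.772). Hoxa10 had means of 10.80 ± 0.18 (SD, n = 2) and 10.50 ± 0.01 (SD, n = 2), 1.23-fold lower (log2 -0.30, SE 0.14, limma adjusted p = 0.797). Both groups were separate, and neither gene passed. Hoxa9 differed by -0.14 (SE 0.12), Hoxa7 by -0.10 (SE 0.20), Hoxa5 by -0.14 (SE 0.24), Hoxa3 by -0.25 (SE 0.26) and Hoxa2 by -0.34 (SE 0.44). The groups overlapped for each of these 5 genes. Hoxa11, dim throughout, read 3.39 and 3.82 in WT and 3.27 and 3.00 in Ncstn KO (-0.46, SE 0.21, limma adjusted p = 0.776).

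Other probe sets of the same genes were compared because 11 members had more than 1. Of 12 Hoxa probe sets above the reference 11 were lower in Ncstn KO, 4 of them with separate arrays. Of all genes above the reference 46% were lower, and 13.6% were lower with separate arrays. Probe sets of 1 gene share their transcript, and Ncstn KO replicate 1 was the lowest array on 8. The second Hoxa9 probe set read 9.40 and 9.61 in WT and 9.34 and 9.20 in Ncstn KO, separate groups and a difference of -0.23. Its lowest array was replicate 2, unlike the brighter probe set, where it was replicate 1. The second Hoxa5 probe set differed by -0.42 with separate groups, against -0.14 for the brighter one. A second Hoxa10 probe set, dim at a mean of 5.19, went the other way, by 0.20. The second Hoxa4 probe set, not above the reference at a mean of 3.10, differed by -0.14 with overlapping groups. With all probe sets of a gene averaged, Hoxa4 differed by -0.36 and Hoxa10 by -0.051. In the Hoxb cluster 6 of 7 such probe sets were higher in Ncstn KO, and the exception was the second Hoxb4 probe set, at -0.31 against 0.04 for the brighter one.

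Among Hoxb genes above the reference, Hoxb2 differed by 0.54 (SE 0.41, limma adjusted p = 0.928), Hoxb5 by 0.26 (SE 0.31), Hoxb13 by 0.24 (SE 0.24), Hoxb3 by 0.08 (SE 0.36) and Hoxb4 by 0.04 (SE 0.21). Hoxb4 had means of 8.55 ± 0.23 (SD, n = 2) in WT and 8.59 ± 0.03 (SD, n = 2) in Ncstn KO, a difference within the spread between WT arrays. Hoxc6 differed by 0.09 (SE 0.25), Hoxc9 by -0.08 (SE 0.23) and Hoxd12 by 0.12 (SE 0.28). The signs of Hoxc6 and Hoxd12 turned under the scaling to hybridization controls. The 18 members not above the reference differed by -0.46 to 0.49, where dim signal limits what a difference can show.

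Mean levels hid differences between arrays of the same genotype. Of the 15 members above the reference, Ncstn KO replicate 1 was the lowest array for 6, namely Hoxa2, Hoxa3, Hoxa4, Hoxa5, Hoxa9 and Hoxb3, whereas it was the lowest array for 18.0% of all genes above the reference. Cxcl12, the chemokine gene of the stromal marker list, was also lowest on that array, at 4.69 against 7.84 on Ncstn KO replicate 2 and 8.32 and 8.56 in WT. Of the 8 stromal markers 5 were lower in Ncstn KO, with a median of -0.25, and 4 (Col3a1, Lepr, Pdgfra and Prrx1) were not above the reference. Their summed intensities of 2055 to 2117 in WT and 2121 to 2753 in Ncstn KO went the other way, Pdgfrb being the brightest of them and higher (0.45, SE 0.14). Of the 5 endothelial markers 3 were higher, among them Pecam1 (0.48, SE 0.20), with a median of 0.02, and Cdh5 was not above the reference. Their sums, 1920 to 1992 in WT and 1338 to 1410 in Ncstn KO, were lower with Emcn (-1.40, SE 0.18). Their part in the Hox values was not tested, nor was that of the committed progenitor markers above. In sorted bulk cells, fewer cells of a type and less RNA per cell cannot be told apart.

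**Figure D3:**
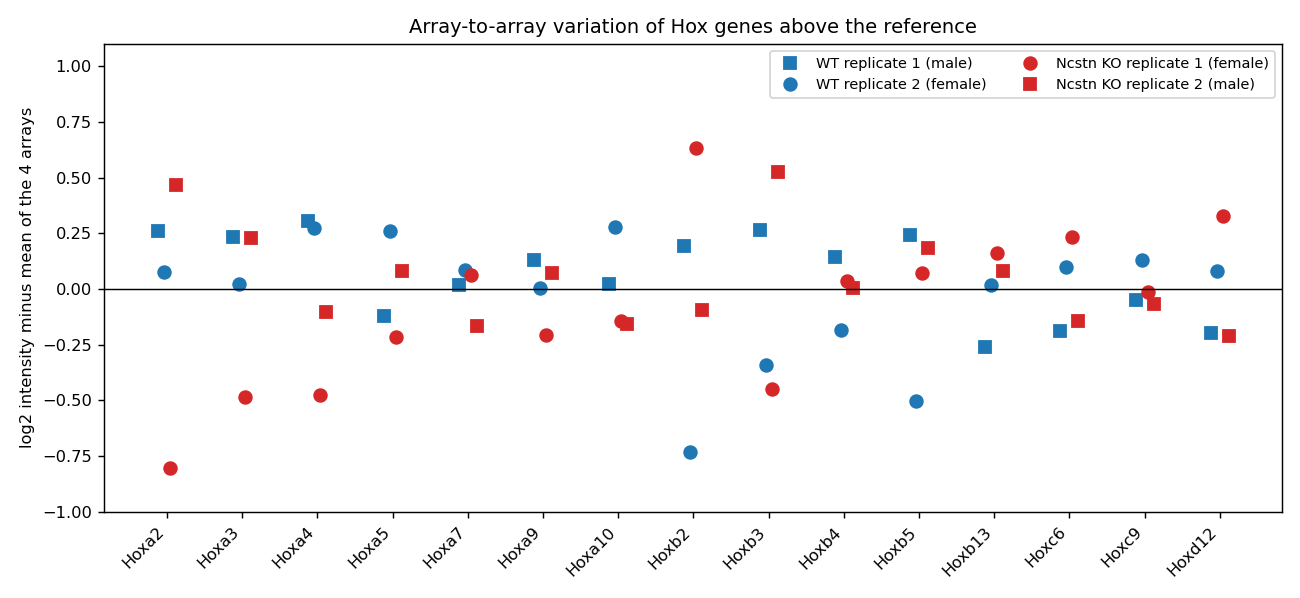
Deviation of each array from the mean of the 4 arrays (log2, vertical axis) for the 15 Hox genes above the reference, with blue for WT, red for Ncstn KO, squares for male and circles for female. The red circle, Ncstn KO replicate 1, is lowest for Hoxa2, Hoxa3, Hoxa4, Hoxa5, Hoxa9 and Hoxb3 and highest for Hoxb2, Hoxb13, Hoxc6 and Hoxd12.

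The female and male pairs gave different pictures of the genotype. Within the female pair (Ncstn KO replicate 1 against WT replicate 2) 9 of 9 Hoxa members were lower in Ncstn KO, with a median of -0.48, and within the male pair 6 of 9, with a median of -0.06. For Hoxb2 the female pair gave 1.36 and the male pair -0.29, for Hoxa2 they gave -0.88 and 0.21, and for Hoxb5 0.58 and -0.06. Hoxa4 differed by -0.75 and -0.41, Hoxa10 by -0.42 and -0.18, and Hoxa9 by -0.21 and -0.06, the same direction in both pairs. The pairs had opposite signs for 17 of 33 members (51.5%), against 44.3% of all genes. Each pair holds 1 array per genotype, so the difference between sexes has no test of its own.

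**Figure D4:**
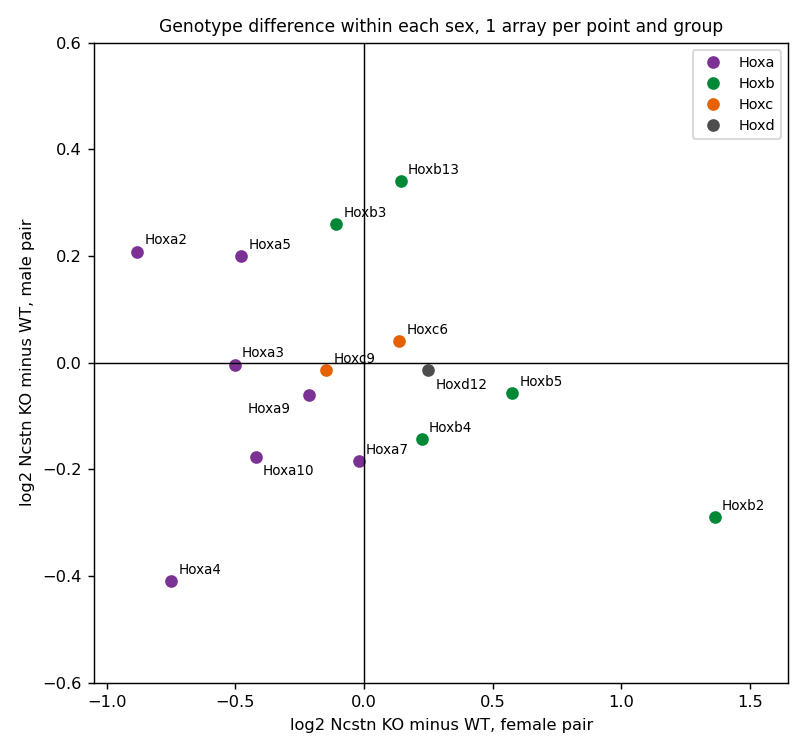
Log2 Ncstn KO minus WT in the female pair (horizontal axis) and the male pair (vertical axis) for the 15 Hox genes above the reference, coloured by cluster, with 1 array per genotype and sex. All 7 Hoxa genes lie left of 0, from -0.88 to -0.02, and Hoxb2 lies farthest right at 1.36.

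Sex, balanced over genotype, was then taken as the contrast, a comparison chosen after values were seen. In a limma fit with genotype as the other term 0 of 33 members passed, against 0.022% of all genes (4 genes), with a smallest adjusted p of 0.574 among members. At an unadjusted limma p under 0.05 there were 5 members (15.2%), against 1561 of all 18193 genes. Male arrays were both above the female arrays for 8 members (24.2%), against 11.5% of all genes, and below for 11 members (33.3%), against 29% of all genes. The 8 members higher in males were Hoxa2, Hoxa3, Hoxa9, Hoxb3, Hoxb5, Hoxc4, Hoxc8 and Hoxc10. Hoxb3 read 9.68 and 9.94 in males and 9.08 and 8.97 in females, a log2 difference of 0.79 (SE 0.17, limma adjusted p = 0.574), and its second probe set was higher in males too, at 6.40 and 6.87 against 6.00 and 5.94. Hoxc10, on average below the reference, read 4.80 and 5.29 in males and 3.46 and 3.73 in females (1.45, SE 0.18). Hoxc4, of the same cluster but not next to Hoxc10 and also below the reference, read 4.63 and 5.31 in males. In females it read 3.60 and 3.91 (1.21, SE 0.20). None of these passed over all genes.

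The proteins that act with or on Hox genes gave no call in any list, with p adjusted over all genes. At an unadjusted p under 0.05 there was 1 TALE cofactor (Pknox1), 1 Trithorax or activator gene (Psip1), 2 target genes (Id2 and Pim1) and no Polycomb, Cdx or flanking gene, against 6.8% of all genes. Of 8 measured TALE cofactors 0 passed and 4 were higher and 4 lower in Ncstn KO, with a median of 0.0072. Their groups were separate for 3 lower and 2 higher genes, against 12.8% and 21.3% of all genes. The members with the smallest p were Pknox1 (-0.47, SE 0.18), Pbx4 (0.49, SE 0.26), Meis2 (-0.16, SE 0.15) and Pknox2 (0.20, SE 0.20), the last pair not above the reference. Meis1, the main partner of Hoxa9 in progenitors and named after its values were seen, read 10.71 and 10.27 in WT and 10.01 and 10.91 in Ncstn KO, lowest on Ncstn KO replicate 1 as were Hoxa2 and Hoxa3. Meis1 also read higher on both male arrays than on both female arrays, as Hoxa2 and Hoxa3 did. Its groups overlapped and its difference was -0.03 (SE 0.31).

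Of 16 Trithorax proteins and activators of Hox genes 0 passed, with 12 lower in Ncstn KO and a median of -0.06. Psip1, which tethers Kmt2a complexes to chromatin, differed by -0.26 (SE 0.08, limma adjusted p = 0.595) and Mllt3 by 0.37 (SE 0.15). The histone H3 methyltransferase gene Dot1l differed by -0.29 (SE 0.14) and Rbbp5 by -0.41 (SE 0.22). The groups were separate for Psip1, Mllt3 and Dot1l and overlapped for Rbbp5. Over the list they were separate for 5 lower and 2 higher genes, against 12.8% and 21.3% of all genes. Of 17 Polycomb genes 0 passed, with 9 lower and a median of -0.01. Their groups were separate for 2 lower and 5 higher genes, against 12.8% and 21.3% of all genes. Ezh2, the methyltransferase that marks silent Hox genes, differed by -0.19 (SE 0.08), Suz12 by -0.19 (SE 0.10), Pcgf1 by 0.29 (SE 0.17) and Bmi1 by 0.13 (SE 0.10). The 3 Cdx genes, which switch on Hox genes in the embryo, were not above the reference, and their differences were 0.23 (SE 0.21) for Cdx1, 0.12 (SE 0.11) for Cdx4 and 0.08 (SE 0.21) for Cdx2.

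Among 10 genes known as Hoxa9 and Meis1 targets 0 passed and 7 were higher in Ncstn KO, with a median of 0.09. Id2, an inhibitor of E-protein transcription factors, read 9.86 and 10.21 in WT and a mean of 10.67 ± 0.03 (SD, n = 2) in Ncstn KO, a difference of 0.64 (SE 0.16, limma adjusted p = 0.477). Pim1, a survival kinase gene, differed by 0.19 (SE 0.08), the receptor gene Flt3 by 0.13 (SE 0.11) and Myb by 0.08 (SE 0.06). The groups were separate for Id2, Pim1 and Myb and overlapped for Flt3. Of 22 genes flanking the clusters 0 passed, with 11 higher and 11 lower, a median of -0.01, and the smallest p for Calcoco1 beside Hoxc (0.34, SE 0.19), Skap1 beside Hoxb (0.59, SE 0.35), Skap2 beside Hoxa (0.14, SE 0.09) and Cbx5 beside Hoxc (-0.18, SE 0.12).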

How the data were processed

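The members and gene lists were chosen with earlier results of these data known. Per the labels' protocols, cDNA was amplified from 5 ng of RNA by a NuGEN Ovation kit and labelled with biotin. The authors deposited linear probe set intensity values (3.32 to 23643). The submitters' processing notes name RMA, with no version. Single-probe values were not used, so signal over background was read from 38 olfactory receptor genes, and amplification from little RNA adds noise for rare transcripts.

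Values were taken to log2 without further scaling. Of 45101 probe sets 64 controls were left out, 34945 named 1 gene, 932 several and 9160 none in the platform annotation of 2016. The brightest probe set represented each gene. Of the 33 members 4 rested on a probe set of a type that can bind more than 1 transcript, and paralogs may share signal. Ncstn KO was compared with WT in limma 3.58.1 under R 4.3.3, by a two-sided moderated test with genotype as the one term and the prior variance following mean intensity, adjusted by Benjamini-Hochberg over 18193 genes, with 2 residual and 4.11 prior degrees of freedom. The code was tested on simulated data. Named were all members, with differences for those above the reference or at least 2-fold apart, up to 4 genes per other list by smallest p, and Ncstn and Xist as label checks. Hoxa11, Hoxc4, Hoxc10, Meis1, Mpo and Cxcl12 were singled out after their values were seen, as was Hoxc13 as the single member at an unadjusted p under 0.05. Figures were drawn with matplotlib 3.10.9. Alternatives covered probe set choice, scaling, filters, variance model, sex, replicate number and leaving out arrays. The 2 replicates per group differ in sex and so came from separate mice, and their number limits all precision.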

Additional observations from a re-analysis of the deposited data

Results flagged for a closer look

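For 7 Hox genes above the reference, the female and the male pair differed in opposite directions between Ncstn KO and WT. Each pair holds 1 array per genotype, so these differences were not tested. The male minus the female value was 1.09 for Hoxa2 (0.21 and -0.88), 0.68 for Hoxa5 (0.20 and -0.48) and 0.37 for Hoxb3 (0.26 and -0.11). It was -1.65 for Hoxb2 (-0.29 and 1.36), -0.63 for Hoxb5 (-0.06 and 0.58), -0.37 for Hoxb4 (-0.14 and 0.22) and -0.26 for Hoxd12 (-0.01 and 0.25). The female value was the larger one in size for Hoxa2, Hoxa5, Hoxb2, Hoxb4, Hoxb5 and Hoxd12, and the male value for Hoxb3. Opposite signs were found for 44.3% of all genes and for 42.3% of genes above the reference. The 7 of 15 Hox genes above the reference are near that share, so opposite signs do not set them apart.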

How the results depend on the processing

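No Hox gene and no Hox cofactor or regulator gene passed under any of the 13 alternatives run, and 13 to 15 Hox genes were above the reference under every setting tried for it. Over all genes the limma fit called 0, but 3 after quantile normalization, 62 with arrays centred on the median, 2 among genes above the median mean, 451 with a floor on dim values, and 0 to 27 without 1 array (23 without Ncstn KO replicate 1, 27 without Ncstn KO replicate 2). The causes were not tested. The median Hox difference, 0.04, became -0.15 when arrays were scaled to the hybridization controls, which read 0.20 higher in Ncstn KO and moved the median of all genes to -0.17, and the share of lower Hox genes to 26 of 33. It became -0.14 among the 7 Hox genes above the median mean, and ran from -0.023 to 0.039 without 1 array. Hox genes at least 2-fold apart with separate arrays numbered 0, and 0 to 2 without 1 array, those being Hoxc4 and Hoxc10 without WT replicate 1 or Ncstn KO replicate 1. With all probe sets of a gene averaged, the sign turned for Hoxb4 (-0.13) and Hoxc6 (-0.072). With scaling to the controls it turned for Hoxb3 (-0.12), Hoxb4 (-0.15), Hoxc6 (-0.11) and Hoxd12 (-0.079). Without 1 array the differences ran from -0.97 to 0.30 for Hoxa2, -0.61 to 0.10 for Hoxa3, -0.33 to 0.052 for Hoxa5, -0.22 to 0.012 for Hoxa7, -0.28 to 0.0037 for Hoxa9, -0.41 to 0.56 for Hoxb3, -0.13 to 0.21 for Hoxb4, -0.11 to 0.63 for Hoxb5, -0.10 to 0.28 for Hoxc6, -0.17 to 0.011 for Hoxc9 and -0.15 to 0.39 for Hoxd12. Of the 15 Hox genes above the reference, Hoxa4, Hoxa10, Hoxb2 and Hoxb13 kept their sign under every alternative run on them. Hoxa10, however, fell to -0.051 with all probe sets of a gene averaged. With the replicate number as a block 0 genes were called by limma (920 at an unadjusted p under 0.05), the Hox median was 0.04 and no call changed. Same-numbered arrays deviated in opposite directions (r = -0.24 over genes, a value the design of 2 by 2 mirrors as 0.24 for arrays of the same sex). Same-numbered arrays always differ in sex, so this value cannot tell whether the numbers pair the samples. Pairing by sex in limma also called 0 genes (1591 at an unadjusted p under 0.05). The number of arrays and the unknown background limit dim members most.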

Other observations

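Other transcripts of the clusters were read outside the comparisons. The antisense gene Hoxb5os read 8.90 and 9.11 in WT and 9.29 and 8.89 in Ncstn KO, above the reference on every array and with overlapping groups. Its lowest arrays were the male ones, whereas its neighbour Hoxb5 was lowest on a female array. Antisense genes Hoxa11os and Hoxd3os1 were below the reference on all probe sets, with means of 2.43 to 3.22, as were Evx1 and Evx1os at 3.63 and 4.01. Evx2, the homeobox gene beside the posterior end of Hoxd, read 4.87 and 4.90 in WT and 5.41 and 5.02 in Ncstn KO, close to the reference.

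Signals of probe sets shared by several Hox genes were dim, with means of 3.03 for Hoxb8 with Hoxb7 and of 3.39 and 4.42 for Hoxd4 with Hoxd3.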
